A study of Mus musculus with 6 samples.

Results

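Goblet cells are the mucus-making secretory cells of the gut lining, and the 10 genes described here are markers of that program: *Muc2*, *Tff3*, *Agr2*, *Spdef*, *Clca1*, *Zg16*, *Fcgbp*, *Spink4*, *Ern2* and *Klk1*. They are established goblet cell markers, picked by symbol with earlier results of these data known, and are 10 of the 56884 genes in the count files. Each was found once, and 10 of 10 passed the filter on low counts both at day 6 and over both days. The libraries are bulk RNA-seq of Lgr5-GFP+ cells, the sorted population that carries the stem cell reporter, grown from the small intestine of mice with 3 engineered loci. Every group carried the Villin-CreERT2 transgene, the Lgr5-EGFP-IRES-CreERT2 allele, which is the reporter and a further source of Cre, and floxed *Ythdf2* on both chromosomes (Ythdf2fl/fl). Villin-CreERT2 is active in all epithelial cells of the intestine once its ligand is given, and Lgr5-EGFP-IRES-CreERT2 in Lgr5-expressing cells. Organoids received 4-OHT (4-hydroxytamoxifen, the CreERT2 ligand) at 0.5 µM or EtOH, its solvent, and cells were sorted on day 4 or day 6. There were 2 EtOH and 2 4-OHT libraries at day 6 and 1 of each at day 4. The labels do not say whether the 2 libraries of a group came from separate mice, organoid lines or cultures, so p-values measure only the spread between these libraries.

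Goblet cells arise from dividing progenitors of the crypt. Spdef is the transcription factor that drives their maturation, Muc2 is the gel-forming mucin that builds the mucus layer, and Ern2 and Agr2 act in the endoplasmic reticulum, where the mucin is folded and assembled. Fcgbp, Clca1 and Zg16 are secreted into the mucus beside Muc2, Tff3 is a small peptide of the epithelial surface, and Spink4 and Klk1 are a protease inhibitor and a protease of secretory cells. In bulk RNA, fewer cells of a type and less RNA per cell cannot be told apart.

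*Zg16* and *Clca1* were higher in the 4-OHT libraries than in the EtOH libraries at day 6 and over both days, whereas *Spdef*, *Ern2* and *Fcgbp* were lower at day 6 without passing the test, and the other 5 genes overlapped between the groups. The order of the libraries therefore differed between members. Gene counts per library ran from 14345379 to 21461835, and 1 CPM, the usual level per fixed library total, was about 14 to 21 counts. Levels below are CPM scaled by the trimmed mean of M-values. *Ythdf2*, the gene that 4-OHT is meant to delete, was at 82.8 and 76.0 CPM in the day 6 EtOH libraries, 208 and 204 CPM in the day 6 libraries labelled 4-OHT, and 76.0 and 167 CPM at day 4 in the EtOH and the 4-OHT library. It was thus higher in every library labelled 4-OHT, against what the label says of a deletion (log2 difference at day 6 of 1.37, SE 0.16, adjusted p = 0.0018 by edgeR's quasi-likelihood test with Benjamini-Hochberg adjustment). Gene counts do not separate the deleted exons from the rest, so they do not show whether recombination took place. 4-OHT is used below as the name of the label, and every direction of 4-OHT against EtOH rests on it.

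At day 6, 2 of the 10 members passed an adjusted p of 0.05, both higher in the libraries labelled 4-OHT, against 2.51% of 14066 genes tested and 2.27% called higher. Over both days, with day as a term in the fit, the same 2 were called, against 4.39% of 14060 genes and 3.67% called higher. In both comparisons 0 members were called lower by edgeR at an adjusted p of 0.05, where 0.235% of all genes were at day 6 and 0.718% over both days. At an unadjusted p of 0.05, 5 members passed at day 6, 2 higher and 3 lower, where 10.3% of all genes did (7.54% higher, 2.79% lower). DESeq2 likewise called 2 members higher and 0 lower at day 6, where it called 3.66% of genes. Over both days it called 2 higher and 2 lower, against 6.09% of genes. By CPM alone the day 6 groups did not overlap for 5 members, 2 higher and 3 lower, where 38.9% of all genes did not (20.4% higher, 18.4% lower). The median log2 difference of the 10 was -0.19 at day 6 and 0.02 over both days, beside -0.01 for all genes in each.

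**Figure D1:**
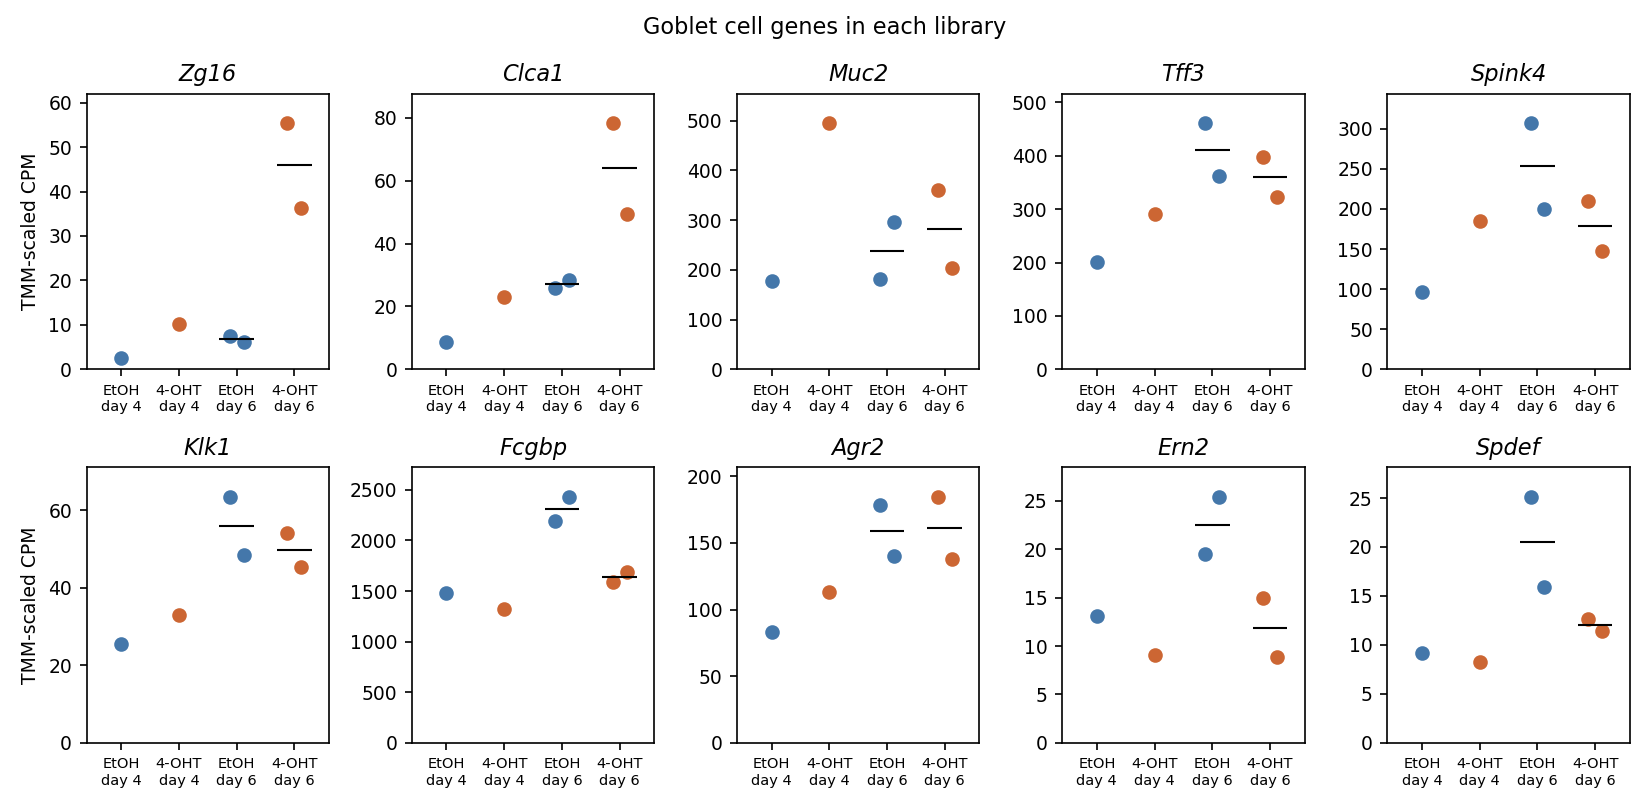
Level of each goblet gene in each library, as scaled CPM on a linear axis from 0, by label and day. Each point is 1 library, with EtOH in blue and 4-OHT in orange, and the bar is the mean of the 2 libraries of a day 6 group. *Zg16* is above every EtOH library in all 3 libraries labelled 4-OHT, *Clca1* is above the EtOH libraries of the same day, and *Spdef* and *Ern2* are below those of the same day.

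*Zg16*, a lectin of the mucus layer that binds bacterial cell walls, had the largest log2 difference of the set at day 6 (chromosome 7, 126649302 to 126686500, minus strand, GRCm39). The day 6 EtOH libraries had 140 and 106 counts, or 7.41 and 6.14 CPM. The day 6 libraries labelled 4-OHT had 1191 and 678 counts, or 55.4 and 36.3 CPM. At day 4 the EtOH library had 48 counts (2.46 CPM) and the 4-OHT library 149 (10.1 CPM). All 3 libraries labelled 4-OHT were above all 3 EtOH libraries. Among all genes, 11.1% were separated in that direction over the 6 libraries. At day 6 the log2 difference reached 2.75 (SE 0.27, adjusted p = 0.000664, edgeR). Over both days it was 2.58 (SE 0.24, adjusted p = 0.00033, edgeR). Without a day term it was 2.69 (SE 0.58, adjusted p = 0.0493, edgeR), close to the threshold. The call at day 6 held without each of the 4 libraries in turn.

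*Clca1*, a secreted metalloprotease of the mucus, lies on chromosome 3 (144709578 to 144738537, minus strand, GRCm39). Its level was 25.7 and 28.3 CPM in the day 6 EtOH libraries and 78.3 and 49.5 CPM in the day 6 libraries labelled 4-OHT, from 486, 489, 1684 and 924 counts. At day 4 it was 8.61 CPM with EtOH and 23.0 CPM with 4-OHT. The groups did not overlap at day 6, but the day 4 library labelled 4-OHT was under both day 6 EtOH libraries. Its log2 difference was 1.24 at day 6 (SE 0.23, adjusted p = 0.021, edgeR) and 1.29 over both days (SE 0.18, adjusted p = 0.00308, edgeR). The day 6 call was lost in 3 of the 4 omissions of a single library: the adjusted p (edgeR) was 0.186 without EtOH replicate 1, 0.0844 without EtOH replicate 2 and 0.172 without 4-OHT replicate 1, whose omission also brought the difference to 0.87. Without 4-OHT replicate 2 it was kept (1.53, adjusted p = 7.11e-05, edgeR). Over both days *Clca1* passed without each of the 4 day 6 libraries. Without either day 4 library the day term takes up the other one, so these fits repeat the day 6 comparison (1.24 in each). Without a day term the adjusted p was 0.269 (edgeR).

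*Spdef*, the transcription factor, lies on chromosome 17 (27933326 to 27947929, minus strand, GRCm39). It was at 25.2 and 15.9 CPM in the day 6 EtOH libraries and at 12.7 and 11.5 CPM in the day 6 libraries labelled 4-OHT. At day 4 it was at 9.18 CPM with EtOH and 8.21 CPM with 4-OHT. The groups were separated at day 6, while the day 4 EtOH library was below both day 6 libraries labelled 4-OHT. The day 6 mean was 20.5 CPM ± 6.52 (SD, n = 2) with EtOH and 12.1 ± 0.843 (SD, n = 2) with 4-OHT. The log2 difference of -0.77 (SE 0.27) did not pass the test (adjusted p = 0.262, edgeR), and it was -0.59 over both days (adjusted p = 0.219, edgeR). Its size depended on the EtOH libraries. Without EtOH replicate 1 of day 6 it was -0.40 at day 6 and -0.31 over both days. Without EtOH replicate 2 it was -1.07 and -0.74.

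*Ern2* encodes an endoplasmic reticulum stress sensor restricted to mucus-secreting epithelium (chromosome 7, 121769116 to 121785468, minus strand, GRCm39). The day 6 EtOH libraries had 369 and 439 counts, or 19.5 and 25.4 CPM, and the day 6 libraries labelled 4-OHT 321 and 165 counts, or 14.9 and 8.84 CPM. The day 4 values were 13.1 CPM with EtOH and 9.09 CPM with 4-OHT. The libraries labelled 4-OHT were below the EtOH libraries of the same day on both days. Its log2 difference was the most negative of the 10 at day 6, at -0.92 (SE 0.29, adjusted p = 0.186, edgeR). Over both days it came to -0.80 (SE 0.23), and the adjusted p was 0.0935 in edgeR and 0.0259 in DESeq2. It passed at day 6 only when 4-OHT replicate 1 was left out (-1.35, adjusted p = 0.0304, edgeR), among the omissions of single libraries.

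*Agr2*, a protein disulfide isomerase needed to assemble the mucin, was level between the day 6 groups (chromosome 12, 36042904 to 36054086, plus strand, GRCm39). It measured 178 and 140 CPM in the EtOH libraries and 185 and 138 CPM in the libraries labelled 4-OHT, and the groups overlapped. The log2 difference was 0.02 (SE 0.19, adjusted p = 0.99, edgeR). At day 4 it was at 83.1 CPM with EtOH and 113 CPM with 4-OHT.

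*Muc2*, the mucin itself, was at 181 and 295 CPM in the day 6 EtOH libraries and at 360 and 203 CPM in the day 6 libraries labelled 4-OHT (chromosome 7, 141276583 to 141308430, plus strand, GRCm39). The replicates of each group lay further apart than the group means of 238 and 282 CPM. At day 4 it was at 177 CPM with EtOH and 495 CPM with 4-OHT, the highest of the 6 libraries. The day 6 log2 difference of 0.24 (SE 0.28) had an adjusted p of 0.884 by edgeR, and its sign turned without EtOH replicate 1 (-0.07) or without 4-OHT replicate 1 (-0.23). Over both days the difference was 0.65 (adjusted p = 0.319, edgeR).

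*Fcgbp*, a large mucus protein linked to Muc2, held 53.0% to 70.5% of the summed CPM of the 10 genes in every library (chromosome 7, 27770661 to 27820287, plus strand, GRCm39). It was at 2196 and 2434 CPM in the day 6 EtOH libraries and at 1585 and 1690 CPM in the day 6 libraries labelled 4-OHT. The groups were separated at day 6, with a log2 difference of -0.50 (SE 0.20) that did not pass the test (adjusted p = 0.399, edgeR). At day 4 the levels were 1476 CPM with EtOH and 1320 CPM with 4-OHT. Over both days the difference of -0.39 had an adjusted p of 0.203 by edgeR and 0.0398 by DESeq2. Because of *Fcgbp*, the sum over the 10 genes was lower in the day 6 libraries labelled 4-OHT (2953 and 2652 CPM) than in the EtOH libraries (3465 and 3554 CPM).

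Members of the RefSeq promoter table (GRCm38.p6) were *Muc2*, *Agr2*, *Spdef*, *Fcgbp* and *Klk1*, 5 of the 10; the others are *Tff3*, *Clca1*, *Zg16*, *Spink4* and *Ern2*. The promoters of *Muc2*, *Spdef* and *Fcgbp* are shown because *Muc2* overlapped between the day 6 groups while *Spdef*, the factor, and *Fcgbp*, the most counted member, lay lower in those labelled 4-OHT. Each run is the 250 bases before the start, 5′ to 3′ on the gene's strand, at chr7:141690090-141690339 (plus), chr17:27728952-27729201 (minus) and chr7:28070986-28071235 (plus). Capitals mark matches on either strand to TGTTTNC (the FOXA type), CAGNTG (a form of the E-box, which Atoh1 and other helix-loop-helix factors bind), CCGGAT (the SPDEF type), CCACG (the core of an endoplasmic reticulum stress element) or TATAAA.
Muc2: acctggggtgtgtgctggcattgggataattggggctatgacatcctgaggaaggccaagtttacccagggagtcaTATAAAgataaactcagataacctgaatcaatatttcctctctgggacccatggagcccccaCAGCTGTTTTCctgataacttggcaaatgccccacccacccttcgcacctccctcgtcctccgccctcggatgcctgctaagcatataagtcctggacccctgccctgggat
Spdef: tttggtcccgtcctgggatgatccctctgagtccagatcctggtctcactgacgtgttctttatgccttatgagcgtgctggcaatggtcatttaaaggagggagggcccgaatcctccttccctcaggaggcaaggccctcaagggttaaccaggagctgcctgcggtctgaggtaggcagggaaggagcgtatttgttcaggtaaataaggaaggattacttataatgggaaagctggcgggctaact
Fcgbp: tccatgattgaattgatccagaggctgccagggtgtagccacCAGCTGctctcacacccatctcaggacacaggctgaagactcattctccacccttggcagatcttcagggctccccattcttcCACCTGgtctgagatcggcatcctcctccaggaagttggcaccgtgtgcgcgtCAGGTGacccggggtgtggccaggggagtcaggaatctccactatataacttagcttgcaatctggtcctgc
The *Muc2* run holds TGTTTNC 108 bases before the start, overlapping a CAGNTG match by 2 of its bases, and TATAAA 174 bases before it. The *Fcgbp* run holds CAGNTG at 208, 125 and 72 bases before the start, and the *Spdef* run holds none of the 5 motifs. Of the other matched members, *Agr2* holds TGTTTNC and *Klk1* CAGNTG. Among 32851 promoters of the table cut to the same length, 17.8% held TGTTTNC, 44.8% CAGNTG, 4.94% CCGGAT, 28.3% CCACG and 12.4% TATAAA. A match is a run of letters and no measure of binding.

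The small secreted products overlapped between the day 6 groups. *Tff3*, the trefoil peptide that protects the surface, was at 461 and 362 CPM with EtOH and at 397 and 323 CPM with 4-OHT, with a log2 difference of -0.20 (chromosome 17, 31344280 to 31348620, minus strand, GRCm39). *Spink4*, the inhibitor, stood at 307 and 199 CPM with EtOH and at 210 and 148 CPM with 4-OHT, with a log2 difference of -0.51 (SE 0.23, adjusted p = 0.508, edgeR; chromosome 4, 40920044 to 40931396, plus strand, GRCm39). *Klk1*, the kallikrein, was at 63.5 and 48.5 CPM with EtOH and at 54.1 and 45.3 CPM with 4-OHT, with a log2 difference of -0.18 (chromosome 7, 43874725 to 43879048, plus strand, GRCm39). For *Tff3* and *Klk1* the replicates of each group differed by more than the group means, and for *Spink4* those of the EtOH group did. *Klk1* belongs to a cluster of closely similar kallikrein genes, and reads that map to several places are in no gene's count, so its level is uncertain. None of the 10 genes shares exon bases with another annotated gene.

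Per kilobase of exon, over the mean of the 6 libraries, the order of levels was *Tff3* at 657 CPM per kb, *Spink4* at 268, *Fcgbp* at 170, *Agr2* at 104, *Klk1* at 39.3, *Muc2* at 20.5, *Zg16* at 13.9, *Clca1* at 9.42, *Spdef* at 5.97 and *Ern2* at 5.05 CPM per kb. The ranges over libraries overlapped for all neighbours in this order except *Agr2* (61.8 to 138 CPM per kb) and *Klk1* (22.3 to 55.5). Those of *Spdef* (3.56 to 10.9 CPM per kb) and *Ern2* (2.94 to 8.48) overlapped, for example. Those of *Spink4* (135 to 431 CPM per kb) and *Fcgbp* (126 to 232) did too. With these lengths *Zg16* and *Clca1* changed places. In the day 6 EtOH libraries *Zg16* was the lower of the pair (5.26 and 4.36 against 6.81 and 7.50 CPM per kb). In the day 6 libraries labelled 4-OHT it was the higher (39.3 and 25.8 against 20.7 and 13.1). The lengths count all annotated exon bases, 1409 for *Zg16* and 3777 for *Clca1*, while their canonical transcripts have 708 and 3655. With the canonical lengths *Zg16* would be the higher in the EtOH libraries too, so the order of levels depends on the length used.

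**Figure D2:**
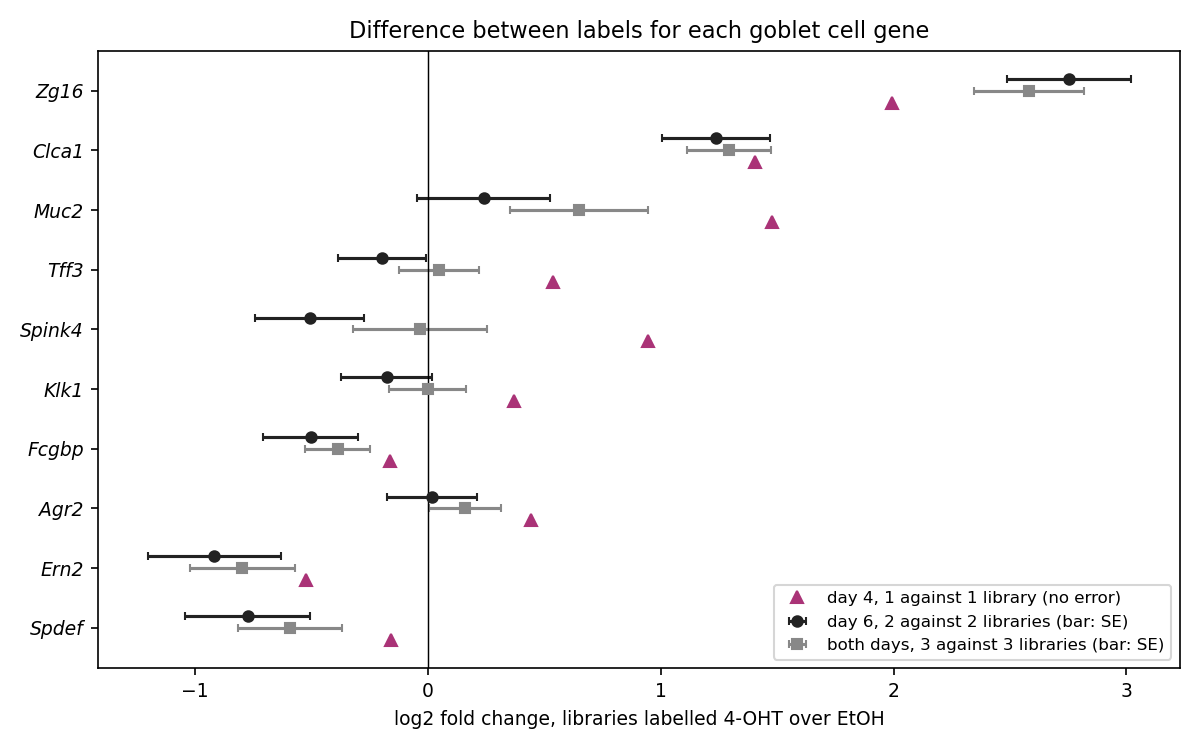
Log2 fold change of the libraries labelled 4-OHT over EtOH for each goblet gene. Circles (day 6) and squares (both days) come from edgeR fits with bars of 1 standard error, and triangles are day 4, with 1 library per label and no error. *Zg16* and *Clca1* lie above 0 in all 3, *Ern2*, *Spdef* and *Fcgbp* below 0, and *Spink4* and *Tff3* are above 0 at day 4 and below 0 at day 6.

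At day 4 there was 1 library per label, so differences have no replicate check and the intervals cover counting error only (exact, 95%). The genes at least 2-fold higher in the 4-OHT library were *Zg16* (4.11-fold, 2.95 to 5.82), *Muc2* (2.79-fold, 2.68 to 2.90) and *Clca1* (2.67-fold, 2.21 to 3.23), 3 of 10 members against 4.63% of 12836 genes. No member was at least 2-fold lower, against 1.4% of genes. *Spink4* was 1.93-fold higher (1.81 to 2.04), and *Tff3*, *Agr2* and *Klk1* 1.45-fold, 1.36-fold and 1.29-fold higher. The ratio of 4-OHT to EtOH was 0.693 for *Ern2* (0.558 to 0.857), 0.894 for *Fcgbp* and 0.895 for *Spdef* (0.705 to 1.13). The median of the members was 0.49 on the log2 scale at day 4, against 0.00 for all genes. Day 4 and day 6 libraries carry names from separate number series, so day and any difference between these sets of libraries cannot be told apart.

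Whether the treatment difference itself changed between the days was tested by an interaction term. With 1 library per label at day 4, the spread in this test comes from the day 6 libraries alone. The day 4 libraries are assumed to vary like them, which could not be checked. No gene of 14060 passed an adjusted p of 0.05 by edgeR (0% called), 228 genes (1.62%) had an unadjusted p under 0.05, and DESeq2 called 6 genes (0.0427%), with no member among them. Of the members, 3 had an unadjusted p under 0.05. The difference at day 6 minus that at day 4 was -1.45 for *Spink4* (SE 0.40, unadjusted p = 0.00455, edgeR). It was -1.24 for *Muc2* (SE 0.49, unadjusted p = 0.0291, edgeR) and -0.73 for *Tff3* (SE 0.33, unadjusted p = 0.0469, edgeR), each with an adjusted p of 1. For *Zg16* it was 0.72 (SE 0.52) and for *Clca1* -0.17. The test was also run on simulated counts at this design, with changed genes drawn from those averaging more than 5 CPM. It recovered 10% of 2-fold and 80% of 4-fold differences, so smaller differences between days were mostly not detectable.

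Between days, with the treatment as a term, *Zg16* and *Clca1* were higher at day 6 than at day 4, by 1.91 (SE 0.27, adjusted p = 0.0194, edgeR) and 1.55 (SE 0.21, adjusted p = 0.0145, edgeR) on the log2 scale. These were 2 of 10 members, against 0.562% of 14060 genes and 0.327% called higher. *Spdef* (0.87), *Klk1* (0.85), *Agr2* (0.72), *Tff3* (0.65), *Spink4* (0.61), *Ern2* (0.60) and *Fcgbp* (0.48) had positive differences that did not pass, and *Muc2* had -0.24. The median over the 10 was 0.69 on the log2 scale, against 0.02 for all genes. DESeq2 called 6 members, adding *Tff3*, *Agr2*, *Fcgbp* and *Klk1*, against 2.35% of genes. The calls were not kept in full without either day 4 library, which leaves 1 library at day 4, so only sizes are given. They were 1.45 for *Zg16* and 1.64 for *Clca1* without the 4-OHT library, and 2.18 and 1.47 without the EtOH library. Without EtOH replicate 2 of day 6, 4 members passed by edgeR. That fit called 559 genes in all, against 79 with all libraries.

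Ratios of counts within a library do not depend on library size. The pairs here and in the next paragraph were chosen with earlier results of these data known. Their separation is therefore a description and was not tested, and the share of all gene pairs separated was not computed. For every 100 *Spdef* counts, the EtOH libraries of day 6 had 29.5 and 38.5 *Zg16* counts and the libraries labelled 4-OHT 438 and 317. At day 4 the ratio was 26.8 with EtOH and 123 with 4-OHT, so the 3 libraries labelled 4-OHT were above the 3 EtOH libraries. The ratio was 11.1-fold higher at day 6 and 4.59-fold higher at day 4. *Clca1* to *Spdef* was also separated over the 6 libraries, at 3.83-fold higher at day 6 and 2.99-fold at day 4.

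Against *Muc2* the pattern depended on the day. For every 100 *Muc2* counts, the EtOH libraries of day 6 had 4.10 and 2.08 *Zg16* counts and the libraries labelled 4-OHT 15.4 and 17.9, a 5.68-fold difference. At day 4 the values were 1.39 and 2.04, a 1.47-fold difference. *Clca1* to *Muc2* was 1.97-fold higher at day 6 and 0.958 of the EtOH value at day 4. *Ern2* to *Muc2* was the ratio that was lower in all libraries labelled 4-OHT: 10.8 and 8.61 *Ern2* counts per 100 *Muc2* counts with EtOH against 4.14 and 4.36 with 4-OHT at day 6, and 7.39 against 1.84 at day 4. The other 6 ratios to *Muc2* overlapped between labels. As a share of the summed CPM of the 10 genes, *Zg16* and *Clca1* together held 0.957% and 0.970% with EtOH at day 6 and 4.53% and 3.23% with 4-OHT. Their share at day 4 was 0.529% in the EtOH library and 1.33% in the library labelled 4-OHT.

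**Figure D3:**
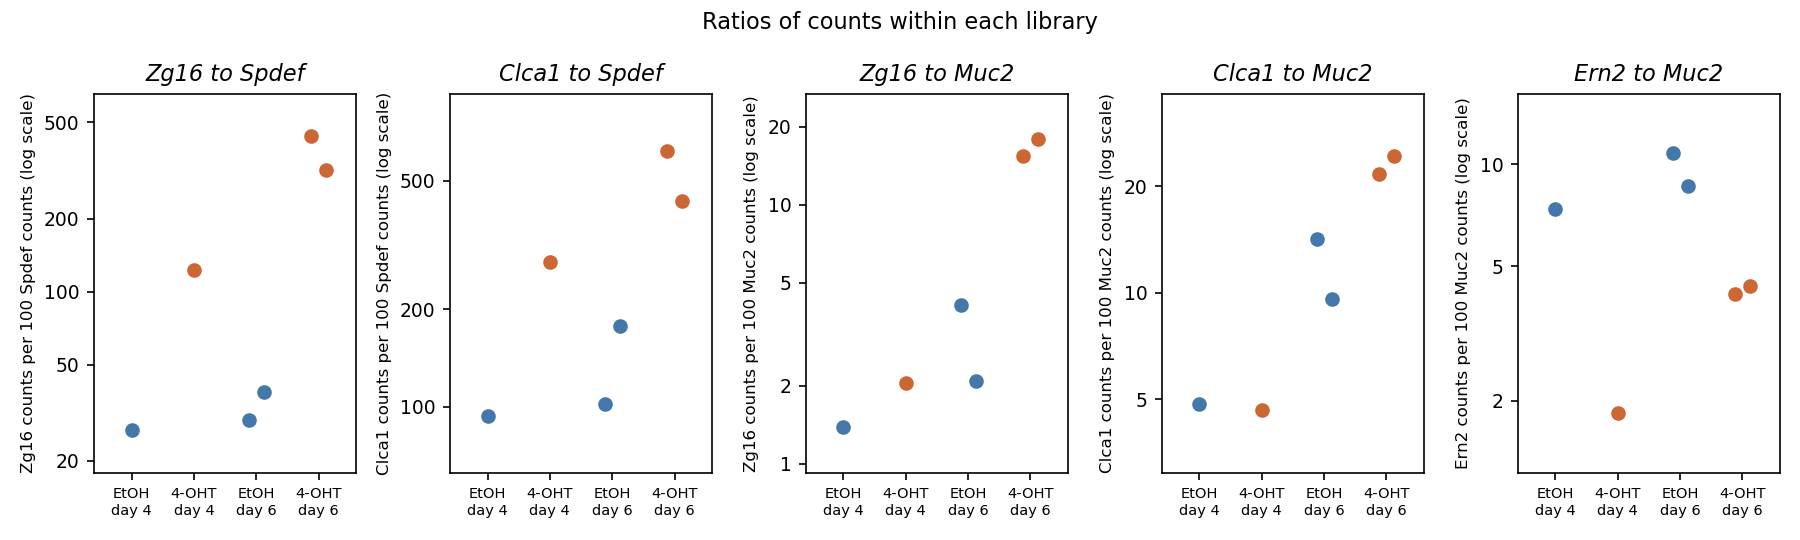
Counts of *Zg16*, *Clca1* or *Ern2* per 100 counts of *Spdef* or *Muc2* in each library, on log axes, with EtOH in blue and 4-OHT in orange. Both ratios to *Spdef* are above every EtOH library in all libraries labelled 4-OHT, and *Ern2* to *Muc2* is below every EtOH library in all of them. The pairs were chosen with earlier results of these data known.

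Over the 6 libraries some members had similar profiles, given as correlations of log2 CPM across libraries that share label and day and so without a test. *Tff3*, *Agr2* and *Klk1* were alike (Pearson r of 0.968 for *Tff3* with *Agr2*, 0.979 for *Tff3* with *Klk1* and 0.970 for *Agr2* with *Klk1*). *Zg16* and *Clca1* had r = 0.949, *Tff3* and *Spink4* 0.944, *Spdef* and *Fcgbp* 0.859, and *Spdef* and *Zg16* -0.01. Likeness also ran across these sets, with 0.840 for *Spdef* and *Klk1* and 0.823 for *Agr2* and *Clca1*, so the members did not form separate groups. Likeness was measured over the 10433 genes that averaged 5 CPM or more, and those most like *Zg16* were *Clec2h* (r = 0.999), the cytochrome P450 *Cyp3a13* (0.999) and *Sprr2a3* (0.995), and 126 genes had r over 0.95. For *Clca1* they were *Nars2* (0.992), *Slc12a8* (0.991) and *Fer1l6* (0.987), although *Nars2* ranged only from 23.6 to 28.7 CPM. With *Clca1*, 57 genes had r over 0.95, so the r of 0.949 between *Zg16* and *Clca1* was not particular to that pair. The genes most like *Spdef* were *Creb3l4* (0.996), a transcription factor of the endoplasmic reticulum, the chemokine *Ccl9* (0.993) and *Gnptg* (0.990). *Creb3l4* measured 12.8 and 7.65 CPM with EtOH and 5.44 and 4.39 CPM with 4-OHT at day 6.

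Other genes of goblet cell differentiation and mucus formation were read from fixed lists. Of 10 other goblet cell factors tested at day 6, 1 was higher and 0 lower by edgeR, with a list median of -0.22 on the log2 scale. The background for this and the following day 6 list counts is 2.27% of all genes called higher and 0.235% called lower, with a median of -0.01 over all genes. The one that rose was *Klf4*, a factor of goblet cell maturation, at 44.0 and 61.2 CPM with EtOH and 97.5 and 126 CPM with 4-OHT (1.09, SE 0.21, adjusted p = 0.0238, edgeR). *Atoh1*, the factor that commits progenitors to the secretory fate, had a log2 difference of -0.26 at day 6 (adjusted p = 0.844, edgeR). *Creb3l4* had -1.06 (adjusted p = 0.187, edgeR).

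Of 22 genes of protein folding and secretion in the endoplasmic reticulum, 0 passed by edgeR or DESeq2 at day 6, where 2.51% and 3.66% of all genes did, so the count is near the background. An unadjusted p under 0.05 was found for 1 of the 22, against 10.3% of all genes, and the median was -0.13. The stress sensor *Ern1*, the relative of *Ern2* found in most tissues, had a log2 difference of 0.29 at day 6 (adjusted p = 0.737, edgeR), and the chaperone *Hspa5* 0.10 (adjusted p = 0.941, edgeR).

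Of 18 tested genes of mucin glycosylation, 2 rose at day 6 and 0 fell, against 2.27% and 0.235% of all genes, with a median of 0.22. *St3gal4*, a sialyltransferase, rose by 1.63 (SE 0.17, adjusted p = 0.000923, edgeR) and *Gcnt3*, which branches mucin O-glycans, by 0.89 (SE 0.16, adjusted p = 0.0192, edgeR). *Gcnt1* lay just outside the threshold, with 2 and 2 counts with EtOH and 50 and 16 with 4-OHT at day 6. Of 5 other mucins tested, 1 rose, against 2.27% of all genes: *Muc17*, a mucin of the brush border membrane and not of the gel, by 2.26 (SE 0.17, adjusted p = 0.000152, edgeR). It was at 33.3 and 38.5 CPM with EtOH and at 164 and 181 CPM with 4-OHT at day 6. Transmembrane mucins share similar repeats, so its count is uncertain to that extent.

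Of 29 other goblet-enriched genes tested at day 6, 3 rose and 0 fell, against 2.27% and 0.235% of all genes, with a median of 0.05. *Tff2*, a trefoil peptide best known from the stomach, had 5 and 21 counts with EtOH and 182 and 268 with 4-OHT at day 6, and 5 and 100 counts at day 4 (3.96 at day 6, SE 0.53, adjusted p = 0.00412, edgeR). *Hgfac*, a serine protease, rose by 1.91 (adjusted p = 0.00193, edgeR), and *Hpd*, an enzyme of tyrosine breakdown, by 1.11 (adjusted p = 0.032, edgeR). *Slc12a8* passed over both days alone (0.44, adjusted p = 0.0428, edgeR). DESeq2 called 3 genes of this list higher and 2 lower at day 6, where it called 3.66% of all genes.

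In the family of *Clca1*, 2 of 6 tested genes rose at day 6, *Clca1* and *Clca4a*, against 2.27% of all genes. *Clca4a* had 16 and 6 counts with EtOH and 465 and 132 counts with 4-OHT at day 6 (4.55, SE 0.64, adjusted p = 0.00499, edgeR), but 11 and 10 counts at day 4. Like *Tff2* and *Gcnt1*, it passed the day 6 filter on low counts only through the libraries labelled 4-OHT, where it was high. The day 6 log2 differences of *Clca3a1* (-0.78), *Clca3b* (-0.52), *Clca3a2* (-0.22) and *Clca4b* (0.58) did not pass. Over both days DESeq2 called 2 genes of the family lower, against 193 of 14060 genes. There edgeR called 0 lower, against 0.718% of genes. Family members are similar in sequence, so reads may be missing from or divided among them. The tested relative of *Fcgbp*, *Fcgbpl1*, had 6 and 8 counts with EtOH and 15 and 21 with 4-OHT at day 6 and did not pass (1.20, adjusted p = 0.643, edgeR).

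**Figure D4:**
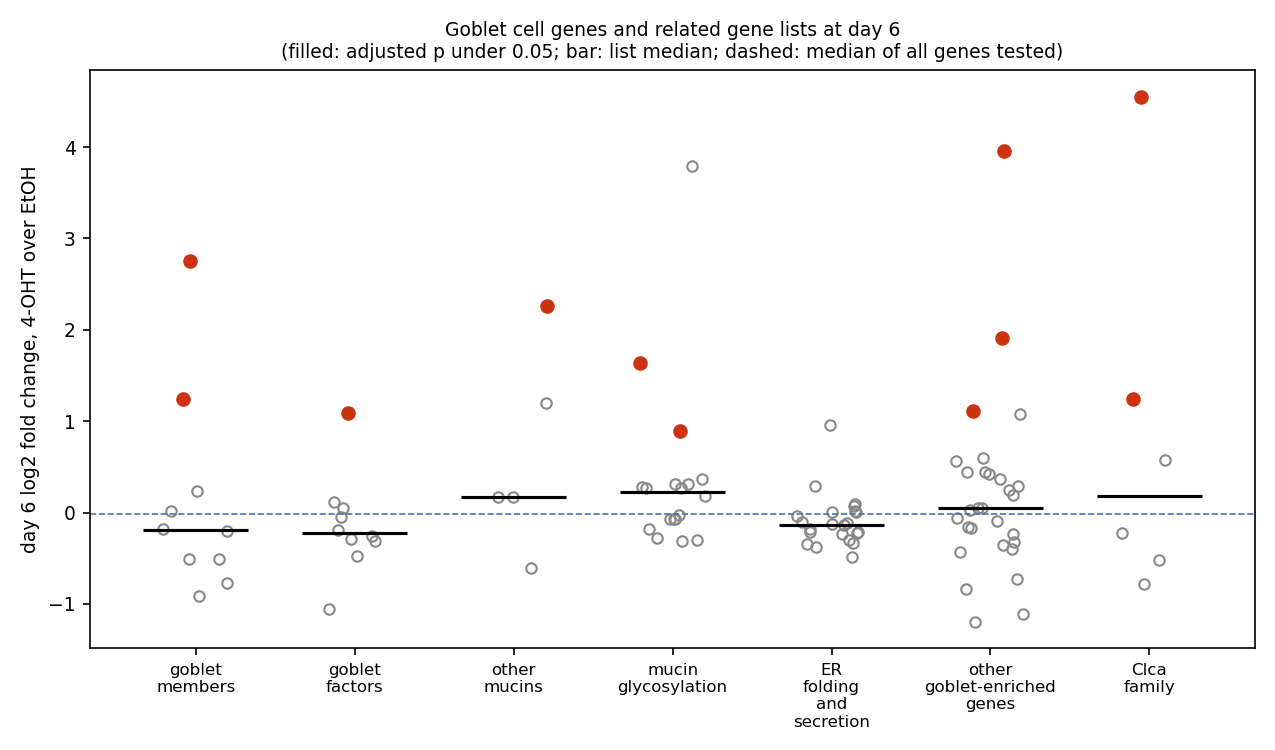
Day 6 log2 fold change of 4-OHT over EtOH for every tested gene of the goblet gene lists other than the list of *Zg16*, *Fcgbp* and their relatives, which is not drawn, 1 point per gene. Filled points passed an adjusted p of 0.05 in edgeR, the bar is the list median and the dashed line the median of all genes tested. The medians of the lists drawn lie between -0.22 and 0.22, and every filled point is above 0.

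Markers of other cell types moved with the label too. The 12 enterocyte markers summed to 1703 and 1879 CPM with EtOH and to 4931 and 3957 CPM with 4-OHT at day 6, and at day 4 to 1370 CPM with EtOH and 1849 CPM with 4-OHT. At day 6, 9 of 12 were called higher by edgeR, against 2.27% of all genes, with a median of 2.02. *Zg16* and *Clca1* were high in the same libraries as this list, and the part of enterocyte-lineage RNA in their rise was not tested. The 10 stem cell markers summed to 6231 and 5814 CPM with EtOH and to 4063 and 3741 CPM with 4-OHT at day 6, with 1 called lower, against 0.235% of all genes. That gene, *Olfm4*, made up much of the difference in the sum, at 3304 and 2244 CPM with EtOH and 1320 and 984 CPM with 4-OHT. The median of this list was -0.42. All 10 were at 1 CPM or more in all 6 libraries, which were sorted for the Lgr5 reporter.

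Among secretory types, the 10 Paneth cell markers summed to 3028 and 2127 CPM with EtOH and 5326 and 2116 CPM with 4-OHT at day 6, and to 415 and 1738 CPM at day 4. The 10 enteroendocrine markers summed to 493 and 411 CPM against 746 and 399 CPM at day 6, and to 63.4 and 296 CPM at day 4. Both sums, like *Muc2*, were highest in 4-OHT replicate 1 among the day 6 libraries and higher in the 4-OHT than the EtOH library at day 4. The 9 tuft cell markers, *Il25* and *Alox5ap* of them at 0 in every library, summed to 40.7 and 22.1 CPM with EtOH and 12.3 and 10.4 CPM with 4-OHT at day 6, the same order of libraries as *Spdef*. Their part in the values of the goblet genes was not tested. The 5 immune and the 5 stroma and endothelium markers were each under 1 CPM in every library.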

How the data were processed

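Polyadenylated RNA of 6 libraries was sequenced after random-hexamer priming, per the labels' protocols. The authors deposited whole-number read counts per gene, not normalized, for 56884 genes, with summary rows for unmapped, multimapping, ambiguous and unassigned reads. The submitters' processing notes name STAR and mm39. The annotation release and strand setting are not given in the sources used here. Summary rows, 19.3% to 26.7% of all entries, stayed out of library sizes and tests. Symbols and positions came from GENCODE M39 (GRCm39), which matched 56323 identifiers. Promoters came from RefSeq (GRCm38.p6).

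Counts were tested with edgeR 4.0.16 (glmQLFit with legacy set to FALSE, quasi-likelihood F test, TMM scaling, filterByExpr with a minimum count of 10) in R 4.3.3, with Benjamini-Hochberg adjustment over all genes tested and a threshold of 0.05. The day 6 comparison used 4 libraries. The comparison over both days, the interaction and the comparison of days used all 6. Standard errors are the absolute log2 difference over the square root of F. Day 4 differences used a prior count of 2 and genes averaging 1 CPM or more, with exact Clopper-Pearson intervals. Without molecular identifiers these cover counting error only. The same test on simulated counts recovered 84% of 200 changed genes at day 6 with 4.55% false calls (13775 genes). It recovered 68% of the 2-fold and 100% of the 4-fold changes. The changed genes were drawn from those averaging more than 5 CPM, so recovery at lower levels was not measured. False calls were 7.35% over both days and 6.47% for day 6 against day 4, above the threshold of 0.05.

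The members and gene lists were chosen with earlier results of these data known. Named genes were all 10 members, *Ythdf2*, list genes with an adjusted p under 0.05 at day 6 or over both days (at most 5 a list), and the 3 genes most correlated with *Zg16*, *Clca1* and *Spdef*. *Atoh1*, *Ern1*, *Hspa5*, *Gcnt1*, *Fcgbpl1* and the uncalled Clca genes were added after their values were seen. *Creb3l4* was named by the correlation rule. The lists' symbols Muc3, Smim6, Oit1 and Zg16b matched no gene. Alternatives were DESeq2 1.42.0, median-of-ratios scaling, no filter, each library left out, a replicate block, other day terms and the legacy fit, which was added after seeing the data. Replicates were checked for duplicate libraries and differed by far more than counting error (chi-square per degree of freedom of 33.2 and 22.9).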

Additional observations from a re-analysis of the deposited data

How the results depend on the processing

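Of 230 values recomputed under other settings, 217 kept their direction and side of the threshold, 9 newly passed, 1 no longer passed and 3 changed sign. Leaving out single libraries gave 213 of 240 unchanged, 3 newly passing, 6 no longer passing and 18 of changed sign. At day 6 the members called ranged from 1 to 2 when a library was left out. Over both days DESeq2 called 4 members (*Zg16* and *Clca1* higher, *Ern2* and *Fcgbp* lower), and a fit with no day term called 1, *Zg16*. For day 6 against day 4, DESeq2 called 6 members, and leaving out a library gave 0 to 4. The 3 values that changed sign under other settings lay near 0: *Klk1* over both days was 0.00154 in the legacy fit and 0.0017 in DESeq2, and *Tff3* was -0.0165 with no day term. The cause was not tested.

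With single libraries left out, the log2 difference at day 6 ranged from -0.23 to 0.63 for *Muc2*, -0.20 to 0.21 for *Agr2* and -0.36 to 0.0358 for *Klk1*. Over both days it ranged from -0.20 to 0.22 for *Tff3*, -0.51 to 0.29 for *Spink4* and -0.18 to 0.17 for *Klk1*. The difference between days ranged from -0.54 to 0.10 for *Clca1*, and day 6 against day 4 from -0.81 to 0.42 for *Muc2* and -0.0496 to 1.39 for *Spink4*. Log2 ratios to *Muc2* ranged from -0.95 to 0.11 for *Tff3*, -0.74 to 0.32 for *Agr2* and -0.94 to 0.16 for *Klk1*.

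A replicate block at day 6 called 4 members, adding *Spdef* (adjusted p = 0.0458, edgeR) and *Ern2* (adjusted p = 0.00376, edgeR) as lower, and 839 genes in all against 353. The labels do not say that the numbers pair libraries. The deviations of same-numbered libraries correlated at 0.223 across genes, and with 2 pairs this does not establish pairing. Over all genes, the day 6 calls were 99 without EtOH replicate 1. Those over both days, 617, were 361 with no day term, 361 without either day 4 library, and 384 and 394 without 4-OHT replicates 1 and 2 of day 6. The difference between days gave 0 to 13 with a library left out. Those of day 6 against day 4 were 318 by DESeq2, 182 without a filter and 50 in the legacy fit, against 79. They were 559 without EtOH replicate 2 of day 6, 44 without 4-OHT replicate 1 of day 6, 36 without the day 4 EtOH library and 12 without the day 4 library labelled 4-OHT. At this depth *Zg16* at 48 counts in 1 library was the least counted member, and 2 libraries per group at day 6 limit precision more than depth.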

Other observations

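The letters GGACT, a common form of the motif in which N6-methyladenosine is placed, were counted in the canonical protein-coding transcript of each goblet gene in GENCODE M39. YTHDF2 is a reader of that modification. *Muc2* held 15 occurrences (1.08 per kb), *Fcgbp* 10 (1.26), *Spdef* 5 (2.60), *Ern2* 5 (1.72), *Agr2* 3 (3.82), *Clca1* 3 (0.821), *Tff3* 2 (4.06) and *Klk1* 2 (2.10). *Zg16* and *Spink4* held 0. The median over 21770 transcripts was 1.01 per kb. These are counts of letters, no modification was measured, and no relation to the differences was tested.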
